A study of Mus musculus with 56 samples.

Results

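The data described here were the transcriptomes of medullary thymic epithelial cells (mTECs) on day 12 after birth (D12, 3 mice) and in non-pregnant females (NPC, 3 mice), chosen by their cell type and time point labels, 6 of the 56 samples of the series. The 3 mTEC samples of late gestation (D-2) gave the reference for what differed from NPC before birth. Each gene that differed could then be asked whether it had returned by D12, had passed beyond the non-pregnant level or was still displaced. Whether pregnancy itself caused a difference was not tested. All dams were B6.SJL females mated with BALB/cJ males, each sample came from 1 mouse, and pups were taken away at birth, so that D12 was a postpartum group without suckling. The NPC group consisted of non-pregnant females, and ages are not given in the sources used here. Cells were sorted after enzymatic digestion as EpCAM+CD45- cells that bound the lectin UEA1, and poly(A) RNA was sequenced.

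mTECs line the thymic medulla, where maturing T cells are tested for reactivity against self. They present a wide range of tissue-restricted proteins under the control of the transcriptional regulators AIRE and FEZF2, attract thymocytes with chemokines such as CCL21, and are replaced continuously from dividing precursors. Pregnancy shrinks the thymus under the influence of sex hormones, and the organ regrows after birth.

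The 6 libraries held between 10538497 and 41988256 expected counts. Gene levels are given below as FPKM (fragments per kilobase of transcript, scaled to the number of mapped reads), and log2 differences come from the counts, with their standard error. A gene was called at a Benjamini-Hochberg adjusted p (limma-voom) of 0.05 or less over the 17743 genes tested. Markers of mTECs were present. The keratin gene Krt5 was at 2756, 3073 and 1442 FPKM in the NPC libraries and 2937, 2715 and 2693 FPKM at D12. Ccl21a, which encodes the medullary chemokine, was at 13205, 15266 and 9069 FPKM in the NPC libraries and 10632, 8446 and 10219 FPKM at D12. All 12 marker genes of mTECs were above 0 in every library. The 12 markers of cortical cells (cTECs) were also above 0 in every library. Presence alone therefore does not separate the cell types, and no cTEC library was set beside these levels. Psmb11, the proteasome subunit of cortical cells, had 25.7, 26.6 and 7.77 FPKM in the NPC libraries and 32.04, 6.80 and 10.6 FPKM at D12, and the summed level of the 12 cTEC markers was 2582, 2340 and 2346 FPKM in NPC and 2456, 1389 and 1698 FPKM at D12. The summed level of 20 thymocyte markers was 73.3 to 80.2 FPKM in NPC and 72.8 to 106 FPKM at D12. 1 NPC library stood apart. NPC replicate 3, with 10882687 counts, listed 524 of the tested genes at 0, against 2917 and 3442 in the deeper replicates 1 and 2. The counts at D12 are given with and without NPC replicate 3. The D12 group was also uneven. D12 replicate 2, the deepest of the 6 libraries, listed 785 of the tested genes at 0, against 2895 and 2378 in D12 replicates 1 and 3.

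At D12 no gene was separated from NPC by the test. Of the 17743 genes, 0 were called (0%), with 2201 genes at an unadjusted p under 0.05 and a smallest adjusted p of 0.233 (limma-voom). edgeR called 0, DESeq2 called 12 and limma on log2(FPKM + 0.5) called 1. At an unadjusted p under 0.05, edgeR had 642 genes and DESeq2 735. Of the 12 DESeq2 genes, 10 were at 0 FPKM in all 3 libraries of one group, and the other two were Actb and Prkch. By contrast, 411 genes (2.32%) had been called in late gestation against NPC, 339 of them higher (1.91%) and 72 lower (0.406%). Between D-2 and D12, 450 genes (2.54%) were called, 182 higher at D12 (1.03%) and 268 lower (1.51%). With edgeR these counts were 93 for D-2 against NPC and 73 for D12 against D-2, and with DESeq2 they were 327 and 412. The D12 and D-2 comparisons share the NPC samples.

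The absence of calls at D12 had a measurable precision. The 95% interval of the D12 minus NPC difference lay inside a change of 1 log2 unit in either direction for 6234 genes (35.1%), and for 6130 of the 11547 genes with a mean of 5 FPKM or more in either group (53.1%). For the remaining genes the interval reached a change of 2-fold at this depth and number of mice. Removing NPC replicate 3 changed the outcome: 324 genes were then called at D12, 280 higher and 44 lower. Of these 324, 238 were at 0 FPKM in both NPC replicates 1 and 2, and 236 of those 238 were above 0 in NPC replicate 3. Leaving out any of the other 8 NPC, D-2 or D12 libraries left 0 called, as the bar chart of left-out libraries shows.

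**Figure D1:**
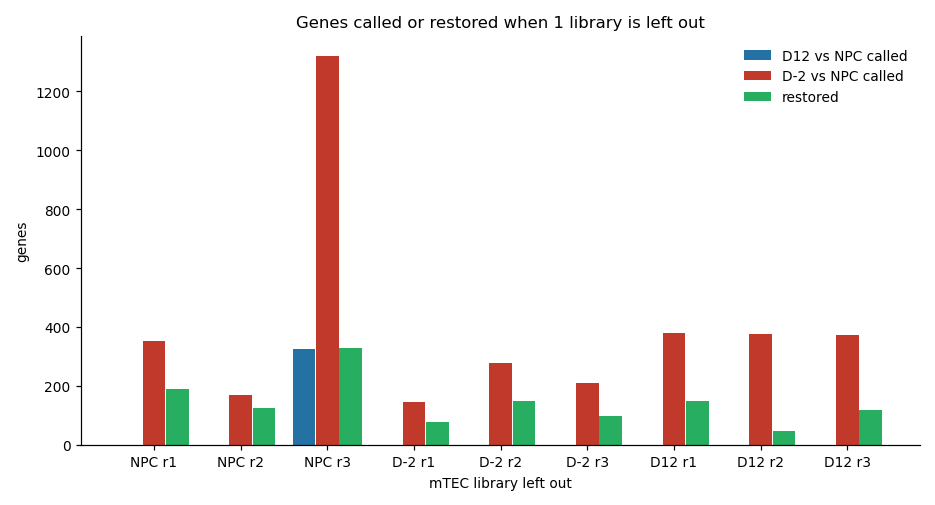
Bars give the number of genes (y axis) called for D12 against NPC, called for D-2 against NPC, or classed as restored, when the mTEC library named on the x axis was left out of the fit. D12 calls appear when NPC replicate 3 is left out (324 genes) and are 0 for the other 8 libraries, while restored genes range from 47 to 328.

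Each of the 411 genes called at D-2 against NPC was then placed by its D12 level. Restored genes were those called at D-2, called between D-2 and D12 in the opposite direction, and not called at D12 against NPC. There were 206 of them, 165 that had been higher at D-2 and 41 that had been lower. No gene overshot and none stayed changed by the test, since both need a call at D12, and 205 genes remained undetermined because their return was not called either. The classes were given by these same contrasts, so that their sizes are a description. The median log2 difference from NPC was 1.31 at D-2 and 0.06 at D12 for the 165 genes that had been higher, and -1.28 and 0.09 for the 41 that had been lower. The 95% interval at D12 lay within 1 log2 unit of NPC for 158 of the 206. It left out 0 for 11 of the 206, and for 2201 of all 17743 genes tested. These D12 medians and interval counts follow largely from the class rule, which needs a called move from D-2 back towards NPC. They describe the class and are no separate evidence of return. The D12 estimate was on the far side of NPC for 55 of the 165 and for 28 of the 41, and between D-2 and NPC for the others. edgeR placed 45 of the 206 in the restored class and DESeq2 160, and 30 of the 206 were restored whichever of the 9 NPC, D-2 and D12 libraries was left out. The restored count was 47 without D12 replicate 2, 78 without D-2 replicate 1, 99 without D-2 replicate 3, 118 without D12 replicate 3, 124 without NPC replicate 2 and 328 without NPC replicate 3.

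The most stable members were 24 named genes that were restored under both limma-voom and edgeR and with each of the 9 libraries left out. This subset was chosen after the values were seen. Acta2 (smooth muscle actin alpha) and the non-coding transcript AI506816 had been lower at D-2, and the other 22 had been higher. Acta2 (chr19:34241090-34255590, minus strand, GRCm38) was at 420.3, 493 and 404 FPKM in the NPC libraries, 98.3, 114 and 142 FPKM at D-2 and 343, 451 and 408 FPKM at D12. All 3 late-gestation libraries lay far below the others, and the NPC and D12 libraries overlapped. The log2 difference was -1.83 ± 0.23 at D-2 against NPC (adjusted p = 0.000773, limma-voom) and -0.12 ± 0.20 at D12 against NPC (95% interval -0.54 to 0.31). 2 further contractile genes that were added after their values were seen followed Acta2. Tagln (transgelin, an actin-binding protein) was at 666, 742 and 583 FPKM in the NPC libraries, 239.8, 221 and 316 FPKM at D-2 and 499.6, 815 and 662 FPKM at D12. Myl9 (a myosin regulatory light chain) was at 192, 324 and 132 FPKM in the NPC libraries, 50.9, 92.9 and 64.5 FPKM at D-2 and 155, 185 and 160.1 FPKM at D12. Both were restored, with log2 differences from NPC of -1.13 ± 0.22 and -1.69 ± 0.26 at D-2, and -0.01 ± 0.20 and -0.25 ± 0.23 at D12. Between D-2 and D12 the mean level of Acta2 was 205 FPKM at D0, 291 FPKM at D3 and 352 FPKM at D6. The 12 fibroblast markers summed to 579.9, 535 and 504 FPKM in NPC, 409, 421 and 615 FPKM at D-2 and 565, 475 and 461 FPKM at D12. The fibroblast sums overlapped in all 3 groups, and their part in the Acta2 change was not tested. Sprr2a2, which encodes a small proline-rich protein of cornifying cells, was added after its values were seen. It was at 1526, 1508 and 704 FPKM in the NPC libraries, 382, 378 and 503 FPKM at D-2 and 1592, 1315 and 1660.0 FPKM at D12, with log2 differences from NPC of -1.49 ± 0.30 at D-2 and 0.26 ± 0.27 at D12. It was restored, and its D-2 libraries were the lowest. Its reads may be shared with near-identical Sprr2a copies, so that its level is uncertain.

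**Figure D2:**
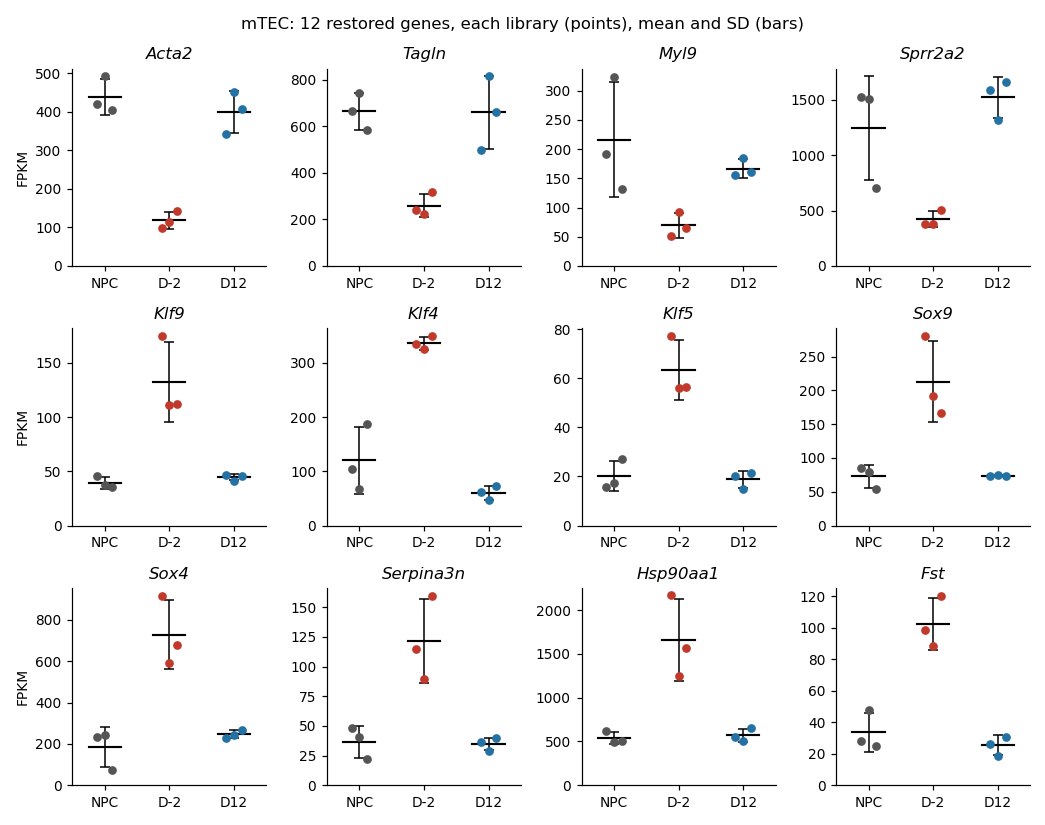
Each panel shows FPKM (y axis, from 0) of 1 restored gene in the 3 NPC, 3 D-2 and 3 D12 mTEC libraries; points are libraries, the horizontal line is the mean and the bar 1 SD. In the panel for Acta2 the D-2 points lie between 98.3 and 142 FPKM and the D12 points between 343 and 451 FPKM, next to the NPC points.

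Among the restored genes that had been higher at D-2, some transcription factors of the KLF and SOX families are described first, picked after their values were seen. Klf9, a hormone-responsive member of the KLF family (chr19:23141226-23168134, plus strand), was at 45.9, 37.3 and 35.2 FPKM in the NPC libraries, 175, 111 and 112 FPKM at D-2 and 46.6, 41.3 and 45.2 FPKM at D12. The D-2 libraries were the highest, and the D12 libraries overlapped NPC. The log2 difference was 1.70 ± 0.23 at D-2 (adjusted p = 0.0012, limma-voom) and 0.15 ± 0.25 at D12 (95% interval -0.38 to 0.68). Sox9, a factor of progenitor cells in many epithelia (chr11:112782224-112787760, plus strand), was at 85.5, 79.2 and 53.4 FPKM in the NPC libraries, 281, 192 and 166 FPKM at D-2 and 72.9, 74.2 and 73.7 FPKM at D12. At D12 its 3 libraries were nearly equal and within the NPC range, a log2 difference of 0.01 ± 0.23 (95% interval -0.47 to 0.49) after 1.48 ± 0.22 at D-2. Klf13 showed the same course, with log2 differences of 1.18 ± 0.19 at D-2 and -0.13 ± 0.21 at D12. Its FPKM values (13.3, 10.2 and 12.8 FPKM in the NPC libraries, 91.8, 89.4 and 76.3 FPKM at D-2 and 8.69, 23.1 and 13.2 FPKM at D12) differed more than its counts. RSEM derives FPKM from isoform lengths, and their part was not tested. Klf4, which controls the differentiation of stratified epithelia, was added after its values were seen. It was at 105, 67.4 and 188 FPKM in the NPC libraries, 335, 326 and 349 FPKM at D-2 and 61.3, 46.9 and 72.1 FPKM at D12, so that its D12 libraries were all below the D-2 libraries and 2 of the 3 were below the lowest NPC library. Its D12 minus NPC log2 difference of -0.95 ± 0.35 (adjusted p = 0.293, limma-voom) did not pass the test, although the 95% interval (-1.68 to -0.22) left out 0. Sox4 and Klf5, also added, had log2 differences from NPC of 2.06 ± 0.35 and 1.76 ± 0.32 at D-2, and 0.50 ± 0.37 and -0.08 ± 0.37 at D12.

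Fst, Igfbp5 and Spink5, which encode secreted proteins, were among the 24 stable genes and are described after their values were seen. Fst, which encodes the activin antagonist follistatin, was at 27.99, 47.7 and 24.9 FPKM in the NPC libraries, 98.2, 88.5 and 120.2 FPKM at D-2 and 26.4, 18.5 and 30.9 FPKM at D12, and its D12 minus NPC log2 difference was -0.54 ± 0.27 (95% interval -1.10 to 0.03). Igfbp5, an insulin-like growth factor binding protein, was at 562, 579 and 406 FPKM in the NPC libraries, 1325, 868 and 1089 FPKM at D-2 and 530.3, 344 and 436 FPKM at D12. Both genes were highest in all 3 D-2 libraries. The mean level of Igfbp5 was 848 FPKM at D6 and 437 FPKM at D12, a step that was not tested. Spink5, a protease inhibitor of cornifying epithelium, was at 17.9, 7.57 and 17.6 FPKM in the NPC libraries, 30.7, 55.7 and 46.6 FPKM at D-2 and 11.2, 13.5 and 13.3 FPKM at D12. Its D-2 libraries lay above all others, and its log2 difference from NPC was 1.82 ± 0.30 at D-2 and 0.03 ± 0.34 at D12.

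Several of the other stable genes, described here after their values were seen, encode a chaperone, chromatin proteins and RNA-processing factors. Hsp90aa1, the inducible cytosolic HSP90 chaperone, was at 615, 493 and 501 FPKM in the NPC libraries, 2172, 1243 and 1574 FPKM at D-2 and 549, 507 and 654 FPKM at D12. The D-2 libraries were all higher, and the D12 and NPC libraries overlapped, with a D12 minus NPC log2 difference of 0.16 ± 0.21. The chromatin genes Bptf and Ankrd11, the splicing genes Rbm39 and Srsf11, the mRNA export gene Thoc2 and the nonsense-mediated decay gene Upf3b had D-2 minus NPC differences between 1.08 and 1.61 log2 units and D12 minus NPC differences between -0.04 and 0.30. Malat1, an abundant nuclear non-coding RNA that was added after its values were seen, was at 374, 254 and 329 FPKM in the NPC libraries, 1535, 3588 and 849 FPKM at D-2 and 389, 337 and 408 FPKM at D12. Its D-2 libraries were 849 FPKM or more, all other 6 were 408 FPKM or less, and its D12 minus NPC log2 difference was 0.14 ± 0.38. Abundant housekeeping messages had estimates of the other sign. Of 26 ribosomal protein genes, 25 had a lower estimate at D-2 than in NPC (median log2 difference -0.33, 0 called, 7 at an unadjusted p under 0.05, limma-voom) and 26 a higher estimate at D12 than at D-2 (median 0.44, 0 called, 14 at an unadjusted p under 0.05). The summed ribosomal level was 34110, 33912 and 20243 FPKM in NPC and 19857.5, 20226 and 28592 FPKM at D-2, so that the 2 groups overlapped through NPC replicate 3. Of 20 nuclear genes of the respiratory chain, 19 had a lower estimate at D-2 (median -0.40, 0 called, 7 at an unadjusted p under 0.05) and 20 a higher one at D12 than at D-2 (median 0.43, 1 called). Their sums did not overlap, at 4256, 3848 and 3169 FPKM in NPC and 2621, 2657 and 2990 FPKM at D-2. The median over all genes was 0.12 at D-2 against NPC and -0.02 at D12 against D-2. Of all 17743 genes, 3075 had an unadjusted p under 0.05 at D-2 against NPC and 2706 at D12 against D-2 (limma-voom). The share of all genes called higher at D12 than at D-2 was 1.03%. The part of RNA composition in the nuclear RNA values was not tested.

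**Figure D3:**
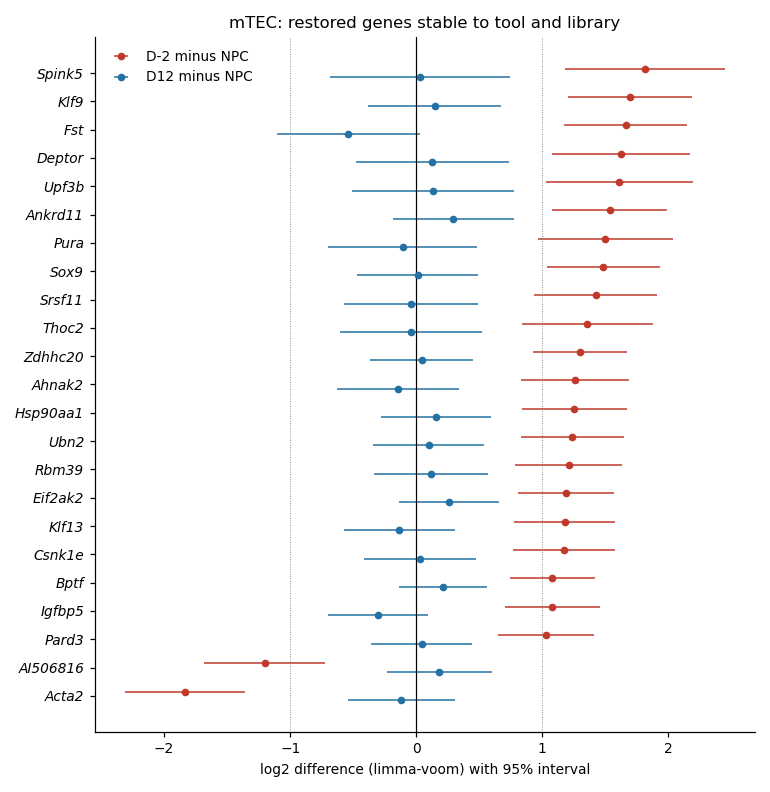
Points give the limma-voom log2 difference from NPC (x axis) at D-2 and at D12 for 23 of the 24 stable restored genes, with 95% intervals; the dotted lines mark a change of 1 log2 unit. The 21 genes plotted that were higher at D-2 and both genes that were lower have D12 intervals that include 0. Both differences of a gene use the same NPC libraries.

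Some cell cycle genes were called lower at D-2 and higher again at D12, but these calls depended on single libraries. Of 22 cell cycle genes, 4 were called lower at D-2 against NPC, where 0.406% of all genes were, and 17 were called higher at D12 against D-2, where 1.03% of all genes were. Without D-2 replicate 3, 0 of 22 were called in either comparison, and edgeR called 0 and 1 of 22. The other 18 genes were not called at D-2 against NPC, and 0 of 22 were called at D12 against NPC, also with edgeR and DESeq2. At D12 against NPC, 8 of 22 had an unadjusted p under 0.05 (limma-voom), against 2201 of all 17743 genes. The median log2 difference of the 22 genes from NPC was -1.60 at D-2 and 0.55 at D12, against 0.12 and 0.13 over all genes. The 4 genes called at D-2 were Mki67, the gene of the proliferation antigen KI-67, and Mcm2, Mcm3 and Mcm5, subunits of the replicative helicase, and all 4 were restored. They were chosen after their values were seen and are shown because they carry the cell cycle result. Their promoters (RefSeq, GRCm38.p6, 250 bases before to 50 bases after the transcription start, printed 5′ to 3′ on the gene's strand) are given in lower case. The capitals mark the E2F-type motifs TTTGGCGC and TTTCGCGC, the CCAAT box CCAAT and the cell cycle homology region TTTGAA, each searched on both strands.
Mki67, chr7:135716330-135716629, minus strand: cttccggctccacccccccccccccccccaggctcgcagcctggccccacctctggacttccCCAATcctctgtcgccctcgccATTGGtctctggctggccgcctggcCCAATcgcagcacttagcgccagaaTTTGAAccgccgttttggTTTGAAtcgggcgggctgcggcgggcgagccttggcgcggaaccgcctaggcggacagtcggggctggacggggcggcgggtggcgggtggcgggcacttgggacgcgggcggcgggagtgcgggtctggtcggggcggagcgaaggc
Mcm2, chr6:88898731-88899030, minus strand: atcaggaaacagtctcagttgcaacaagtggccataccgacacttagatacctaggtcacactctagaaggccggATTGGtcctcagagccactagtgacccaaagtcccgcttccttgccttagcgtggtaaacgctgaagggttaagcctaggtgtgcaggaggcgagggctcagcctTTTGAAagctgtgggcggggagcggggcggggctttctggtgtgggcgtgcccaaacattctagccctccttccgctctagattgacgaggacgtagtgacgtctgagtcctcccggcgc
Mcm3, chr1:20820263-20820562, minus strand: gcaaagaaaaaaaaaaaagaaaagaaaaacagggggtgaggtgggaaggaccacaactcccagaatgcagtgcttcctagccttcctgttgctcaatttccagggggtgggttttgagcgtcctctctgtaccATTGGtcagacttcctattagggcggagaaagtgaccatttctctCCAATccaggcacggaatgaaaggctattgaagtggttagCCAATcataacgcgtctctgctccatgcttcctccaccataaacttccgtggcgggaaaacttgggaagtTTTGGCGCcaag
Mcm5, chr8:75109259-75109558, plus strand: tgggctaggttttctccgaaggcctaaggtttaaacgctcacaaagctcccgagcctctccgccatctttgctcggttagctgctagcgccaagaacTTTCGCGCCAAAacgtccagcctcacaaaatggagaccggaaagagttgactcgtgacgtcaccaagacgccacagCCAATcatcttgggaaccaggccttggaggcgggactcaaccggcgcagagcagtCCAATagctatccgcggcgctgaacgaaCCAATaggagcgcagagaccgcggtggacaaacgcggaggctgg

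The Mki67 promoter held 3 CCAAT boxes and 2 TTTGAA elements, and the Mcm2 promoter held 1 of each. The Mcm3 promoter held 1 E2F-type motif and 3 CCAAT boxes, and the Mcm5 promoter held 2 E2F-type matches that overlap, on opposite strands, and 3 CCAAT boxes. Promoter sequences were found for 18 of the 22 cell cycle genes. A CCAAT box was present in 16 of these 18, against 37.4% of all 32851 promoters, TTTGAA in 10 of 18, against 17.9%, and an E2F-type motif in 3 of 18, against 0.813%. The units differ: a gene counted if any of its promoters held the motif, while the percentages are of promoters, 32851 for 27025 symbols. For the restored genes that had been lower at D-2, 16 of the 33 with a sequence held a CCAAT box, 10 TTTGAA and 4 an E2F-type motif. Among the restored genes that had been higher at D-2, 39 of the 116 with a sequence held a CCAAT box, 17 TTTGAA and 2 an E2F-type motif. These are matches of letters and no measurement of binding.

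Mki67 was at 13.98, 15.6 and 27.5 FPKM in the NPC libraries, 9.83, 12.3 and 2.75 FPKM at D-2 and 26.7, 32.2 and 22.2 FPKM at D12. The D-2 libraries were the lowest, and the D12 libraries lay within or above the NPC range. Its log2 difference from NPC was -1.69 ± 0.42 at D-2 (adjusted p = 0.0357, limma-voom) and 0.65 ± 0.36 at D12 (95% interval -0.10 to 1.39). Mcm5 was at 19.5, 37.2 and 19.5 FPKM in the NPC libraries, 8.58, 9.92 and 6.37 FPKM at D-2 and 32.3, 32.03 and 26.2 FPKM at D12, and it was the only 1 of the 4 that edgeR also called between D-2 and D12, with a D12 minus NPC log2 difference of 0.44 ± 0.23. Mcm3 had log2 differences from NPC of -2.12 ± 0.37 at D-2 and -0.27 ± 0.28 at D12, and Mcm2 of -1.27 ± 0.34 and 0.59 ± 0.25. The 6 restored genes with the largest D-2 effect at a mean of 5 FPKM or more included 5 genes of cell division that were lower at D-2 (Cenpe, Pclaf, Ncaph, Spag5 and E2f2). Pclaf, a partner of the replication clamp, was at 11.9, 11.7 and 13.5 FPKM in the NPC libraries, 4.99, 14.3 and 0.820 FPKM at D-2 and 8.57, 17.8 and 23.6 FPKM at D12. Its D-2 replicate 2 lay above every NPC library, and D-2 replicate 3, the deepest of the group with 48195568 counts, was the lowest. Cenpe, a mitotic kinesin, had -3.01 ± 0.67 at D-2, and 0.32 without D-2 replicate 3. Camk2n1, an inhibitor of the kinase CaMKII and the other gene of the 6, had been higher at D-2. It was at 2.03, 1.38 and 1.41 FPKM in the NPC libraries, 8.13, 8.26 and 8.47 FPKM at D-2 and 2.74, 3.69 and 4.14 FPKM at D12. Its D12 libraries were above all NPC libraries and below all D-2 libraries, with a D12 minus NPC log2 difference of 1.18 ± 0.49 that was not called (adjusted p = 0.334, limma-voom). For D12 against D-2 the count of called cell cycle genes, 17 of 22 in the full set and 0 without D-2 replicate 3, was 9 without D-2 replicate 1 and 10 without D-2 replicate 2. Without D12 replicate 2, 3 of the 22 were called at D12 against D-2. DESeq2 called 2 of 22 for D-2 against NPC and 6 for D12 against D-2. The summed level of the 22 genes was 360, 362 and 475 FPKM in NPC, 171, 253 and 119 FPKM at D-2 and 474, 572 and 443 FPKM at D12. The D-2 libraries were below all NPC libraries, and the D12 libraries overlapped NPC only through NPC replicate 3.

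**Figure D4:**
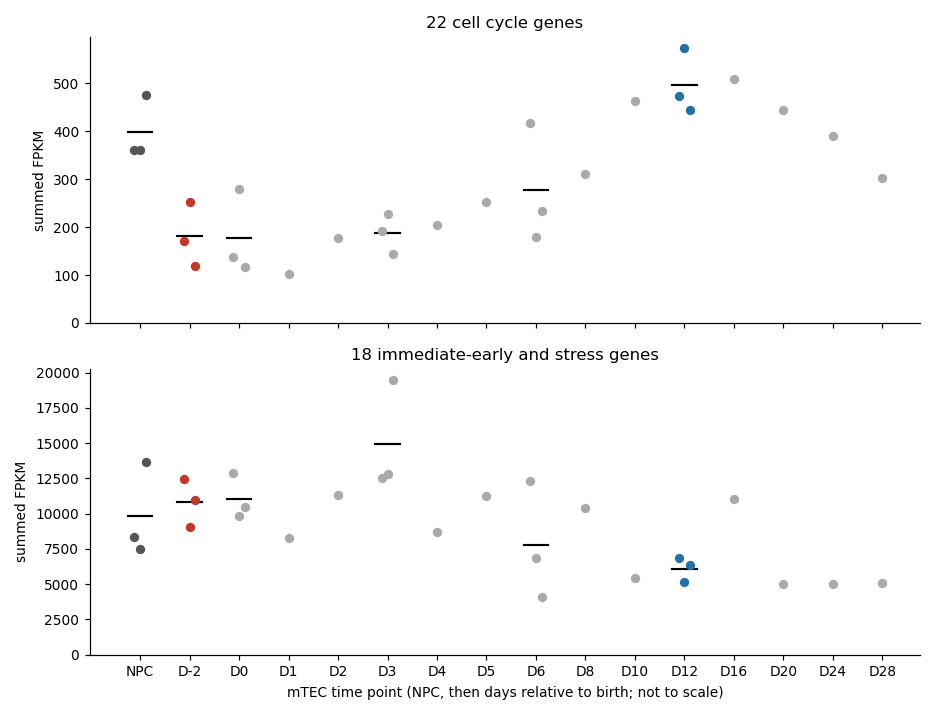
Summed FPKM (y axis, from 0) of the 22 cell cycle genes (top) and of the 18 immediate-early and stress genes (bottom) in each of the 28 mTEC libraries, by time point (x axis, not to scale). Points are libraries and lines are means of 3; the cell cycle sum is 119 to 253 FPKM at D-2 and 443 to 572 FPKM at D12, and the stress sum is 5126 to 6837 FPKM at D12, below the 3 NPC libraries.

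Immediate-early and stress response genes lay lower at D12 than in NPC by their values, although none passed the test. These 18 genes (FOS and JUN family members, other early response genes and heat shock genes) respond to growth signals and also to tissue digestion. Their values were lower in all 3 D12 libraries than in all 3 NPC libraries for 16 of the 18, where this held for 3.96% of all genes tested. Their median D12 minus NPC log2 difference was -1.01, against 0.13 over all genes. An unadjusted p under 0.05 (limma-voom) was found for 14 of the 18, against 2201 of all 17743 genes. Fos (chr12:85473890-85477273, plus strand), chosen after its values were seen, was at 1916, 1576 and 2483 FPKM in the NPC libraries, 2575, 1939 and 2277 FPKM at D-2 and 1234, 605 and 1042 FPKM at D12. Each D12 library was below each NPC and D-2 library, and the log2 difference from NPC was -1.14 ± 0.35 (adjusted p = 0.237, limma-voom). Ier3, an early response gene, was at 47.3, 51.2 and 93.4 FPKM in the NPC libraries and 42.1, 13.1 and 37.7 FPKM at D12, a log2 difference of -1.44 ± 0.41, and Socs3, the feedback inhibitor of cytokine signalling, was at 376, 351 and 478 FPKM in the NPC libraries and 298, 105 and 203 FPKM at D12, a log2 difference of -1.33 ± 0.38. Against D-2, 11 of the 18 were called lower at D12, where 1.51% of all genes were, with edgeR calling 0 and DESeq2 8. Without D12 replicate 2, 0 of the 18 were called in that comparison (2 without D-2 replicate 1, D-2 replicate 3 or D12 replicate 3, and 4 without D12 replicate 1) and their median D12 minus NPC difference was -0.75. The summed level was 8352, 7518 and 13683 FPKM in NPC, 12469, 9068 and 10954 FPKM at D-2 and 6837, 5126 and 6375 FPKM at D12. The part of handling was not tested.

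Regulators, antigen presentation genes and structural genes of mTECs were not called at D12. Aire was at 95.2, 102 and 317 FPKM in the NPC libraries and 151, 145 and 149 FPKM at D12. Its D12 libraries were close to each other and lay between NPC replicates 2 and 3, and the 95% interval of the log2 difference was -0.85 to 0.99. Without NPC replicate 3 the estimate was 0.49 (adjusted p = 0.538, limma-voom). Fezf2 was at 158, 99.5 and 141 FPKM in the NPC libraries and 180.1, 189 and 188 FPKM at D12, higher in 3 of 3 D12 libraries than in any NPC library, with a log2 difference of 0.53 ± 0.18 that did not pass the test (adjusted p = 0.26, limma-voom). Foxn1, the master regulator of thymic epithelium, had a D12 minus NPC log2 difference of 0.41 ± 0.33, Ccl21a of -0.36 ± 0.21, Cd80, a costimulatory ligand, of 0.72 ± 0.34, Epcam of -0.23 ± 0.22 and Krt14 of 0.10 ± 0.17, and none was called. Over the 20 regulators of mTECs, 0 were called at D12, and the median log2 difference at D12 was 0.31. At D-2 against NPC 1 of the 20 (Hipk2) was called higher, where 1.91% of all genes were. For antigen presentation, 13 of 15 genes in the MHC class II list and 14 of 15 in the MHC class I list had a D12 interval within 1 log2 unit of NPC. Their medians were 0.05 and 0.16. The class II list also held costimulatory genes, proteases and the regulator Ciita. The class I list also held genes of the proteasome and of peptide transport and loading. H2-Aa, an MHC class II chain, was at 4153, 3974 and 2999.7 FPKM in the NPC libraries, 2777, 3188 and 3321 FPKM at D-2 and 3772, 4396 and 4456 FPKM at D12. Its D12 and NPC libraries overlapped, with a log2 difference of 0.18 ± 0.15 (95% interval -0.13 to 0.49). At D12 against D-2, 1 gene of the class II list and 2 of the class I list were called higher, where 1.03% of all genes were. Psme2, a proteasome activator subunit of the class I list, was 1 of these. It was at 435, 406 and 411 FPKM in the NPC libraries, 273, 199 and 252 FPKM at D-2 and 566, 654 and 615 FPKM at D12. The D12 libraries exceeded all others, but the D12 minus NPC log2 difference of 0.49 ± 0.17 was not called (adjusted p = 0.267, limma-voom).

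Lists for mature mTEC subsets carried few calls. Of 24 cornified-cell genes, 0 were called at D12 against NPC, 2 were called higher at D-2 (1.91% of all genes) and 1 lower at D12 than at D-2 (1.51% of all genes). Krt10, a keratin of differentiated epidermis, was at 20.4, 4.24 and 27.7 FPKM in the NPC libraries, 38.5, 63.95 and 36.7 FPKM at D-2 and 5.45, 15.2 and 10.3 FPKM at D12. The D-2 libraries were higher than all others, but neither this nor the D12 difference (0.11 ± 0.68, 95% interval -1.29 to 1.52) was called. Of 19 tuft-cell genes, 1 (Alox5) was called lower at D12 than at D-2, and of 20 microfold and gut genes 1 (Gp2) was, where 1.51% of all genes were, so that a single call carries little weight in lists of this size. Median D12 minus NPC log2 differences were 0.07, 0.04 and 0.16 for these 3 lists. For 11 Aire-dependent and 10 Fezf2-dependent genes 0 were called in any of the 3 comparisons, with D12 medians of 0.91 and -0.55, and 0 and 1 of them had a D12 interval within 1 log2 unit of NPC, so that the intervals of the other tested members, sparse genes mostly, reached a change of 2-fold. Among markers of other cells, the 17 macrophage and dendritic cell genes tested had a D12 median of 1.26 with 0 called, while their summed level was 659, 812 and 436 FPKM in NPC and 564, 637 and 716 FPKM at D12.

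**Figure D5:**
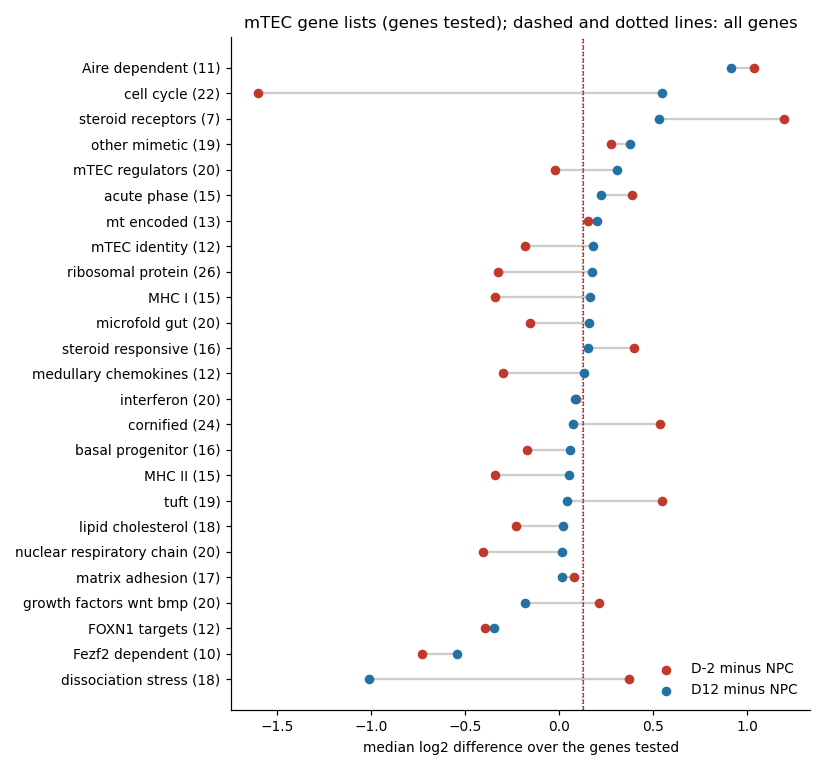
Points give the median log2 difference (x axis) from NPC at D-2 and at D12 over the tested genes of each list (y axis, number of genes in brackets); the dashed and dotted lines are the medians of all 17743 genes at D12 and at D-2. The cell cycle list moves from -1.60 to 0.55 and the list of immediate-early and stress genes from 0.37 to -1.01, while the MHC lists end at 0.05 and 0.16.

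Hormone receptors and hormone-responsive genes were examined next. Pgr, the progesterone receptor, was at 0.870, 2.27 and 2.65 FPKM in the NPC libraries, 4.33, 5.12 and 5.48 FPKM at D-2 and 2.30, 3.36 and 2.29 FPKM at D12. The D-2 libraries were the highest, and the D12 libraries overlapped NPC. Its log2 difference was 1.88 ± 0.44 at D-2 (adjusted p = 0.0272, limma-voom) and 0.96 ± 0.51 at D12 (95% interval -0.09 to 2.02), and its return was not called, so that it was undetermined. Of the 16 steroid-responsive genes, Klf9 and Zbtb16 were called higher at D-2, where 1.91% of all genes were, and Klf9 and Errfi1 lower at D12 than at D-2, where 1.51% of all genes were. Fkbp5, a glucocorticoid-induced chaperone partner, was at 33.1, 32.98 and 35.5 FPKM in the NPC libraries, 34.4, 30 and 34.5 FPKM at D-2 and 52.2, 32.6 and 35.1 FPKM at D12, and none of its differences was called. Of the 15 acute phase genes, 3 were called higher at D-2, where 1.91% of all genes were, and all 3 were restored. In all, 4 were called lower at D12 than at D-2, where 1.51% of all genes were. Serpina3n, a protease inhibitor, was at 47.9, 40.3 and 21.7 FPKM in the NPC libraries, 114, 89.6 and 159.5 FPKM at D-2 and 36.1, 29.1 and 39.4 FPKM at D12, with log2 differences from NPC of 1.76 ± 0.32 at D-2 and -0.15 ± 0.35 at D12. Its D-2 libraries were above all others. Lcn2 and Angptl4 had D12 minus NPC differences of 0.34 ± 0.28 and 0.85 ± 0.45, and the 3 D12 libraries of Angptl4 were all above NPC. Of the 18 lipid and cholesterol genes, 1 was called lower at D-2, where 0.406% of all genes were. This was Fabp5, a fatty acid binding protein, which was restored (567, 543 and 798 FPKM in the NPC libraries, 294, 393 and 297 FPKM at D-2 and 504, 756 and 599 FPKM at D12). Fabp5 and the isoprenoid synthesis enzymes Idi1 and Fdps, 3 of the 18, were called higher at D12 than at D-2, where 1.03% of all genes were. Abca1, the cholesterol exporter, was the 1 gene called lower, where 1.51% of all genes were. Abca1 was at 17.4, 19.3 and 17.2 FPKM in the NPC libraries and 11.5, 8 and 9.55 FPKM at D12. All its D12 libraries were below NPC, and its D12 minus NPC difference of -0.96 ± 0.29 was not called (adjusted p = 0.236, limma-voom).

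The 205 undetermined genes had neither a called return nor a called difference at D12. Their median log2 difference from NPC was 1.28 at D-2 and 0.48 at D12. For 70 of them the 95% interval at D12 left out 0, in every case on the side of the D-2 difference. This side follows largely from the class rule, because a D12 level past NPC makes the difference from D-2 larger and a called return more likely. Both differences also use the same NPC libraries, so that the shared side is no evidence of displacement. 3 examples were chosen after their values were seen, from those of the 70 genes whose D12 and NPC libraries did not overlap. Aldh9a1, an aldehyde dehydrogenase, was at 11.2, 12.1 and 14.6 FPKM in the NPC libraries, 21.3, 21.3 and 22.9 FPKM at D-2 and 19.1, 20.4 and 19.8 FPKM at D12, with log2 differences from NPC of 0.89 ± 0.21 at D-2 and 0.67 ± 0.21 at D12 (adjusted p = 0.247, limma-voom). Nmt1, which attaches myristate to proteins, was at 111, 153 and 91 FPKM in the NPC libraries, 333, 292 and 281 FPKM at D-2 and 249, 203 and 167 FPKM at D12, with 0.61 ± 0.20 at D12. S100a11, a calcium-binding protein, was at 1043, 1146 and 1214 FPKM in the NPC libraries, 757, 684 and 771 FPKM at D-2 and 951, 810.5 and 896 FPKM at D12, with -0.36 ± 0.13 at D12. In all 3 genes the D12 libraries lay between the D-2 and NPC libraries, and neither the return nor the displacement was called. When NPC replicate 3 was left out, 224 genes met the definition of stay changed and 0 that of overshoot. Of the 411 genes called at D-2 in the full set, 18 were among the 224, and 204 of the 206 restored genes were restored again.

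Because no gene was called at D12 against NPC, the genes with the smallest unadjusted p that reached 5 FPKM and did not overlap between the groups are given as values. Among all genes tested, the 3 D12 values were all higher than the 3 NPC values for 4.84%, and all lower for 3.96%. Actb, the cytoskeletal actin (chr5:142903115-142906754, minus strand), was at 3150.3, 4394 and 2818 FPKM in the NPC libraries, 2445, 2004 and 2664 FPKM at D-2 and 5134, 7105 and 7211 FPKM at D12. It was the most abundant of these genes, with a D12 minus NPC log2 difference of 1.00 ± 0.20 (adjusted p = 0.233, limma-voom), and DESeq2 called it. Between D-2 and D12 it was called, with 1.25 ± 0.20. Pih1d1, a subunit of a chaperone complex, was at 26.6, 32.3 and 28.4 FPKM in the NPC libraries and 82.5, 61.2 and 51.6 FPKM at D12, and Acot7, an acyl-CoA thioesterase, was at 14.5, 16.6 and 22.6 FPKM in the NPC libraries and 44.2, 35.2 and 42.1 FPKM at D12. Cdkn3, Psg22, Ly86, BC050972, Sprr2a1 and Avp completed the higher genes together with Dynlt1f, and the first 6 were at 0 FPKM in NPC replicates 1 and 2 and above 0 in NPC replicate 3. Cdkn3, a cell cycle phosphatase, was at 0, 0 and 2.13 FPKM in the NPC libraries and 8.94, 7.91 and 18.7 FPKM at D12. On the lower side, Klf2, a transcription factor of the KLF family, was at 83.2, 78.7 and 160.4 FPKM in the NPC libraries and 44.8, 29.8 and 26.4 FPKM at D12, with a log2 difference of -1.61 ± 0.44. Fto, an RNA demethylase, was at 65.2, 62.9 and 33.4 FPKM in the NPC libraries and 29.8, 23.8 and 29.2 FPKM at D12, with -0.88 ± 0.23. Rcor3, a corepressor subunit, was at 13.5, 17.4 and 10.5 FPKM in the NPC libraries and 3.75, 3.19 and 8.61 FPKM at D12, with -1.21 ± 0.33, and was called lower at D12 than at D-2. The other 7 lower genes were Lce3d, Mup9, Cfap20, Ehhadh, L3hypdh, Defa21 and March3, and Lce3d and Mup9 were listed at 0 FPKM in all 3 D12 libraries. Mup9, Defa21, Psg22, Lce3d and Sprr2a1 belong to families of similar genes, so that their counts are uncertain. All adjusted p values of these 20 genes for D12 against NPC were 0.233 or more.

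The same contrast was compared with cTECs sorted in the same study, 3 D12 against 3 NPC libraries. By the numbers in the titles, the 3 D12 mice and 2 of the NPC mice gave both cell types. The fit of 12 libraries took all of them as independent. With mouse as a random block the count below was also 0, with a consensus correlation of -0.0406. Of 18394 genes, 0 (0%) differed between the cell types in their D12 minus NPC change, with 913 at an unadjusted p under 0.05 (limma-voom). edgeR called 0 and DESeq2 called 6, with 433 and 495 at an unadjusted p under 0.05. Without mTEC NPC replicate 3, 22 genes were called. In cTECs alone 0 genes were called at D12 against NPC, with 578 at an unadjusted p under 0.05. The median half-width of the 95% interval of this difference was 1.64 log2 units, so that the comparison was coarse for most genes. For Klf9 the difference between the cell types was 0.87 (95% interval 0.15 to 1.60, adjusted p = 0.957, limma-voom), and for Mki67 it was 0.89 (95% interval -0.08 to 1.85).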

How the data were processed

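Per the labels and the study's methods, reads were trimmed with Trimmomatic 0.35, aligned to GRCm38 with STAR 2.5.1b and quantified with RSEM 1.2.28, and the annotation release is not given in the sources used here. The authors deposited, per sample, RSEM expected counts (not normalized), FPKM and TPM for 50600 genes. Symbols and positions came from GENCODE M21 (50376 identifiers matched).

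Expected counts were rounded and scaled by TMM (edgeR 4.0.16). One limma-voom fit (limma 3.58.1, R 4.3.3) of the 18 mTEC samples from the 6 replicated time points (NPC, late gestation and 4 times from birth to D12) gave the 3 contrasts. Genes with a mean FPKM of 0.5 or more over the 28 mTEC samples were tested, adjusted by Benjamini-Hochberg and called at 0.05. The cell types were compared in a fit of 12 samples. edgeR's quasi-likelihood test, DESeq2 1.42.0, limma on log2(FPKM + 0.5), other scalings and filters, sample weights, a replicate block and leaving out each library were alternatives. TPM was an alternative for marker sums alone. On simulated counts limma-voom recovered part of the changed genes and also called unchanged ones, and edgeR called fewer unchanged genes. These counts were drawn with dispersions estimated by edgeR and with libraries that differed in depth alone. They therefore do not rank the tools for the real libraries. D16 to D28, with 1 library each, entered no test.

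Named genes were the 10 higher and 10 lower genes with the smallest unadjusted p at D12 that reached 5 FPKM without overlap (because no gene was called), the 6 restored genes with the largest D-2 effect at that level, up to 4 called genes of each list, and 15 functional genes. Others are said to be chosen after their values were seen. Symbols of the Gm or Rik type were counted, not named, and the values of a few items are not reported here. Members and lists were chosen with earlier results of these data known. Counts are limited by sampling at this depth, and p values measure the spread between mice.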

Additional observations from a re-analysis of the deposited data

Results flagged for a closer look

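The 47 named restored genes were also read in the 4 mTEC libraries of D16, D20, D24 and D28, which have 1 sample each and entered no comparison. 3 genes were above every NPC library in all 4. Camk2n1 was at 2.15, 3.39, 6.53 and 4.10 FPKM, against at most 2.03 FPKM in NPC. Lcn2 was at 42.8, 56.4, 78.9 and 63.9 FPKM, against at most 37.9 FPKM in NPC. Ahnak2 was at 12.9, 19.2, 13.9 and 12.8 FPKM, against at most 12.1 FPKM in NPC, while its D12 libraries were at 6.64 to 9.04 FPKM. The lowest of the 4 values was 2.15 FPKM for Camk2n1, 42.8 FPKM for Lcn2 and 12.8 FPKM for Ahnak2. With 1 library per time point these levels were not tested.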

How the results depend on the processing

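Counts below are given in the order D-2 against NPC, D12 against D-2 and restored, where the reported values are 411, 450 and 206. A fold change of 2 or more with an adjusted p of 0.01 or less gave 115, 106 and 54, edgeR 93, 73 and 45, limma on log2(FPKM + 0.5) 25, 29 and 13, sample quality weights 146, 1082 and 137, and no filter on low expression 1080, 1599 and 640. Fitting NPC, D-2 and D12 alone gave 211 and 288 for the first pair, and DESeq2 gave 327 and 412. For D12 against NPC, where the reported count is 0, DESeq2 gave 12 and limma on log2(FPKM + 0.5) gave 1, and all of these were changed at D12 without a call at D-2 (12 and 1). No filter gave 300 at D12, with 60 overshoot, 76 stay changed and 164 changed at D12 without a call at D-2. Leaving out each replicate gave 0 to 324 genes for D12 against NPC, 144 to 1321 for D-2 against NPC, 83 to 621 for D12 against D-2, 47 to 328 restored, 0 to 224 stay changed and 0 to 100 changed at D12 without a call at D-2. The highest D12 count came without NPC replicate 3, the lowest restored count without D12 replicate 2. The difference between mTECs and cTECs gave 6 genes with DESeq2 and 0 to 22 when each replicate was left out, 22 without mTEC NPC replicate 3. The replicate block gave 247, 236 and 137 genes and 0 at D12. The block used the replicate label. NPC and D12 samples with the same replicate label correlated at 0.0189, -0.132 and -0.0385 in their deviations from the group means. The titles number the NPC mice differently, and the 2 pairs that share a title number correlated at 0.0189 and 0.0685. Neither numbering was taken to pair the samples.

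Cenpe at D-2 against NPC ranged from -3.41 to 0.32 when each replicate was left out and turned to 0.32 without D-2 replicate 3. With no filter, the D12 minus NPC differences turned to 0.17 for Igfbp5 and to -0.20 for Sprr2a2. The cause of these changes was not tested. A filter at a mean of 5 FPKM was chosen after seeing the data. With 3 mice per group, the median half-width of the 95% interval at D12 was 0.931 log2 units.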

Other observations

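The summed level of the 22 cell cycle genes was 509.5, 443, 391 and 302 FPKM in the single mTEC libraries of D16, D20, D24 and D28. The sum of the 18 immediate-early and stress genes was 11022, 5011, 4983 and 5063 FPKM in the same libraries.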
